A study of Mus musculus with 16 samples.

Results

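The nuclear genes for the mitochondrial respiratory chain and the ATP synthase were followed in subchondral bone of the mouse medial tibia. Genes were taken by name from the arrays: the NADH dehydrogenase subunits (Nduf), the succinate dehydrogenase subunits (Sdh), the ubiquinol-cytochrome c reductase subunits (Uqcr), the cytochrome c oxidase subunits (Cox4 to Cox8) and the ATP synthase subunits (Atp5). Of 84 genes with such a name, 83 were kept, among 28250 genes tested in all, because a probe exceeded the scanner software's background criterion (called well above background) on 4 or more of the 16 arrays. Cox8c, well above background on 1 array, was the gene left out, and the members nearest to the limit, Cox8b and Cox7b2, reached 14 arrays each. Complex I had 35 of the genes, complex II 4, complex III 8, complex IV 18 and complex V 15, which makes 80 subunit genes. The other 3 members are no subunits by their current names (Dmac2, Dmac2l and the pseudogene Atp5c1-ps) and stand outside the counts per complex.

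All mice were male wild type C57BL6, 10 to 12 weeks old at surgery, and there was no unoperated group. Osteoarthritis was induced by destabilization of the medial meniscus (DMM), in which the ligament that holds the medial meniscus to the tibia is cut, on both knees. In sham mice the ligament of both knees was exposed and not cut. The 4 groups were sham and DMM joints 1 and 6 weeks after surgery, with 4 mice each and 1 joint of each mouse on an array. The labels give subchondral bone as the tissue, cut by laser from 10 µm cryosections, and 100 ng of RNA was labelled per array.

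Arrays fell into 2 sets of 8 by scan date, with 2 arrays of each group in each set. These sets are called slides here, as inferred from the scan date and not read from a slide label. The 75th percentile of the processed signal lay between 332.3 and 883.0 over the arrays. The lowest value belonged to the array called sham_6wk replicate 2, and the next lowest was 477.3. This array also stood apart on the first principal component of all genes, at 176.5 against -69.7 to 71.9 on the other arrays. Most results at 6 weeks are therefore given with and without it. Defining genes of bone were bright in all groups: Col1a1 was between 6.61 and 8.98 and Bglap between 5.35 and 8.01, as log2 signal over the 75th percentile of the array. In such bulk RNA, fewer cells of a type and less RNA per cell cannot be told apart.

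The respiratory chain passes electrons from NADH (complex I) and succinate (complex II) through ubiquinone to complex III, cytochrome c and complex IV, which reduces oxygen to water. Complexes I, III and IV pump protons across the inner mitochondrial membrane, and the ATP synthase (complex V) lets them flow back to make ATP. Most subunits are encoded in the nucleus and a few in the mitochondrial genome. Osteoclasts are rich in mitochondria, while growth plate chondrocytes and cells in low oxygen lean on glycolysis. Complex IV has alternative subunits that are named for the tissue where they prevail: Cox6a2, Cox7a1 and Cox8b in heart and skeletal muscle (Cox8b also in brown fat), Cox6b2 and Cox7b2 in testis, and Cox4i2 and Ndufa4l2 where oxygen is low.

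Promoters of the nuclear subunits are shown because many of these genes are known to share binding sites for NRF1 and for ETS factors such as GABP, and because the genes are compared here as a set. RefSeq promoter windows of 300 bases on GRCm38.p6, which begin before the start site and end 50 bases after it, matched 66 of the 80 subunit genes. The NRF1 core GCGCNTGCG, searched on both strands, occurred in 23 of the 66 (34.8%) against 7.12% of all 27025 genes with a promoter in the table. The ETS core CCGGAAG, searched likewise, occurred in 16 of 66 (24.2%) against 9.93% of all genes. Either core was found in 33 of the 66 subunit genes, against 15.6% of all genes. The share with either core was 71.4% of 14 genes in complex V, 80.0% of 5 in complex III and 41.9% of 31 in complex I, but 23.1% of 13 in complex IV. These are matches of letters in 1 window per start site and not measured binding. The 2 cores do not overlap each other in the sequences below, and an NRF1 core that reads alike on both strands is counted on each.

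The 100 bases before the start site follow for 1 gene each of complexes I, II, III and V and for 4 genes of complex IV, chosen after the matches were seen to show promoters with and without them, with matched letters in capitals. Ndufa8 (complex I) lies at chr2:36049339-36049438, minus strand, with NRF1 cores that begin 30 and 9 bases before the start. Sdhd (complex II) lies at chr9:50603850-50603949, minus strand, with an NRF1 core at 78 and an ETS core at 46 bases before the start. Uqcr11 (complex III) lies at chr10:80406822-80406921, minus strand, with an ETS core at 66 bases; its NRF1 core runs across the start site and is not capitalised. Atp5k (complex V) lies at chr5:108434400-108434499, minus strand, with an NRF1 core on both strands at 50 and 49 bases and an ETS core 13 bases after the start, outside the stretch shown. Cox6b1 and Cox8a are the common forms of their complex IV subunits, at chr7:30626115-30626214 and chr19:7217617-7217716, and Cox6b2 and Cox8b are the restricted forms, at chr7:4753095-4753194 and chr7:140900447-140900546, all on the minus strand. Cox6b1 held an ETS core at 28 bases. Cox8a held an ETS core that begins 5 bases before the start and runs across it, not capitalised here, and another 33 bases after the start. No core was found in the whole windows of Cox6b2 and Cox8b.
Ndufa8: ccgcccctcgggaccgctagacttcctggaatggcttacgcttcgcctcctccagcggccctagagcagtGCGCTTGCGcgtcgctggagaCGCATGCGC
Sdhd: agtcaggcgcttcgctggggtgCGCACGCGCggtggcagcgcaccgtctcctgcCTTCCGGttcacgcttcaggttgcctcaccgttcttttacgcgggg
Uqcr11: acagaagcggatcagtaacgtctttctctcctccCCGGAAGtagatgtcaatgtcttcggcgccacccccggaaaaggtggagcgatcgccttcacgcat
Atp5k: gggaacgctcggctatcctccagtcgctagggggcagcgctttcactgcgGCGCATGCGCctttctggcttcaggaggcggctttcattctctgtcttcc
Cox6b1: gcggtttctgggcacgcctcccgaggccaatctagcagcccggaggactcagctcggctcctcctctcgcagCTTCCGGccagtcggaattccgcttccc
Cox8a: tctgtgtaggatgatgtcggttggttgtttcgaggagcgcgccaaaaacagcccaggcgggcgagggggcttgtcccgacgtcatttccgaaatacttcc
Cox6b2: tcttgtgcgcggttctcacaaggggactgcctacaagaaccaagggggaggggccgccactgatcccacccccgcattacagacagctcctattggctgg
Cox8b: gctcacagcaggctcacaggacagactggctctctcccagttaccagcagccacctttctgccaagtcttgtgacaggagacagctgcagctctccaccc

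At 1 week no gene of any complex passed the test between DMM and sham joints, and the differences were small. DMM joints were higher in 70 of the 80 subunit genes, by a median of 0.08 on the log2 scale, where the median over all 28250 genes was 0.003 and 14336 of them were higher. Medians were 0.06 in complex I, -0.04 in complex II, 0.10 in complex III, 0.10 in complex IV and 0.06 in complex V, against a median standard error of 0.23 for a subunit gene. The test was limma's moderated test over all genes with Benjamini-Hochberg adjustment; it called 0 members and 0% of all genes at an adjusted p under 0.05, and 2 subunit genes and 271 of all genes had an unadjusted p under 0.05. The median was 0.07 on slide 1 and 0.10 on slide 2, but fell to 0.02, with 47 of 80 higher, without either sham_1wk replicate 1 or DMM_1wk replicate 3, and in the authors' value table it was 0.03 with 48 higher. It was 0.16 without DMM_1wk replicate 2. Complex II turned to 0.11 without that array, and complex V to -0.02 without DMM_1wk replicate 3.

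The values of all 4 DMM joints lay above those of all 4 sham joints at 1 week for 3 subunit genes, Uqcrq, Atp5o and Cox8b, and below them for 0, where 0.375% of all genes were separated upward and 0.719% downward. Uqcrq, a small subunit of complex III that helps hold cytochrome b, read 5.77, 6.06, 5.90 and 5.97 in the sham joints and 6.16, 6.11, 6.24 and 6.06 in the DMM joints, as log2 signal over the 75th percentile. At 6.06 the groups were apart only in the third decimal, and the difference was 0.22 ± 0.19 (SE, n = 4 against 4; adjusted p = 1.00 with limma). Atp5o, the subunit that links the catalytic head of the ATP synthase to its stalk, read 5.85, 6.00, 5.95 and 5.98 after sham and 6.10, 6.06, 6.24 and 6.05 after DMM surgery. Its difference was 0.17 ± 0.16 (SE), about as large as its error. At 6 weeks the groups overlapped for both genes, with differences of 0.24 ± 0.19 for Uqcrq and 0.15 ± 0.16 for Atp5o, each 0.04 without sham_6wk replicate 2.

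The 4 subunit genes with the largest differences at 1 week were all restricted forms in complex IV: Cox8b (1.78), Ndufa4l2 (1.00), Cox6a2 (-0.35) and Cox7a1 (0.28). The array means of complex IV, with each gene centred on its mean over the 16 arrays, were -0.18, -0.12, -0.16 and -0.11 in the sham joints and 0.21, 0.04, 0.07 and -0.01 in the DMM joints, and did not overlap. Without Cox8b and Ndufa4l2, which were left out after their values were seen, the other 16 genes gave -0.12 to -0.03 after sham and -0.06 to 0.16 after DMM surgery, and the groups overlapped. In complex I the highest differences were those of Ndufa11 (0.20 ± 0.38) and Ndufa12 (0.18 ± 0.26), both accessory subunits, and the lowest those of Ndufa8 (0.00 ± 0.21) and Ndufa3 (-0.02 ± 0.19). In complex II the catalytic subunits Sdha and Sdhb gave -0.03 ± 0.26 and 0.12 ± 0.30, and the membrane anchors Sdhc and Sdhd gave -0.04 ± 0.15 and -0.05 ± 0.23. In complex III, Uqcrh, Uqcrb and the Rieske iron-sulfur protein Uqcrfs1 gave 0.16 ± 0.15, 0.02 ± 0.27 and -0.02 ± 0.39. In complex V, Atp5g1, a copy of the membrane ring subunit c, gave 0.20 ± 0.32, while Atp5e and Atp5pb gave 0.00 ± 0.14 and -0.02 ± 0.30. The values given for complexes I, II, III and V in these sentences were smaller than or close to their standard errors.

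**Figure D1:**
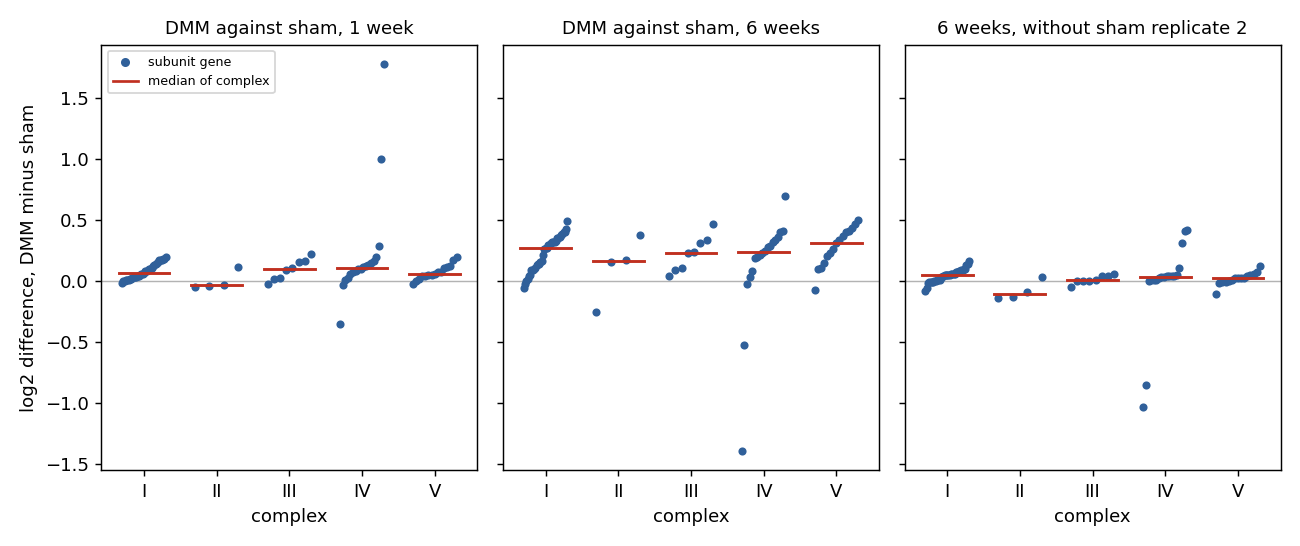
Log2 difference between DMM and sham joints (y axis) of each of the 80 subunit genes (points) by complex (x axis), at 1 week, at 6 weeks and at 6 weeks without the array sham_6wk replicate 2; red lines are medians. The medians of complexes I to V at 6 weeks lie between 0.16 and 0.31 with all arrays and between -0.11 and 0.05 without that array.

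At 6 weeks the subunit genes were again mostly higher in DMM joints, but the size of the difference rested on 1 sham array and no gene passed the test. With all arrays 72 of 80 subunit genes were higher, by a median of 0.25, where the median over all genes was -0.02 and 13194 of 28250 were higher. Without sham_6wk replicate 2 the median was 0.03, with 61 of 80 higher. The test called 0 members and 0% of all genes; 1 subunit gene and 220 of all genes had an unadjusted p under 0.05. Within slides the median was 0.67 on slide 1, which holds that array, and -0.18 on slide 2, so the direction differed between the slides.

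By complex, the medians at 6 weeks were 0.27 for complex I (32 of 35 higher), 0.16 for complex II (3 of 4), 0.23 for complex III (8 of 8), 0.24 for complex IV (15 of 18) and 0.31 for complex V (14 of 15). Without sham_6wk replicate 2 they were 0.05, -0.11, 0.01, 0.03 and 0.02 in the same order, with 27 of 35, 1 of 4, 7 of 8, 15 of 18 and 11 of 15 genes higher. In the authors' value table, which holds the same arrays after their own processing, they were 0.13, 0.01, 0.05, 0.09 and 0.11. The difference between the effects at 6 weeks and at 1 week had a median of 0.17 over the subunit genes, and of -0.05 without sham_6wk replicate 2; no member and 0% of all genes were called for it. Averaged over both times, DMM joints were higher in 75 of 80 subunit genes, by a median of 0.17, and without sham_6wk replicate 2 in 71 of 80 by 0.06. Again no member and 0% of all genes were called. For the difference of the effects and for this average, 1 and 0 subunit genes had an unadjusted p under 0.05. The counts over all genes at that level are not given for these 2 comparisons, so the subunit counts cannot be set against a share.

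The mean centred values over all 80 subunit genes showed 1 array far below the rest. They were -0.23, -0.07, -0.06 and 0.07 in sham joints at 1 week, 0.07, -0.15, 0.17 and 0.03 in DMM joints at 1 week, 0.01, -0.66, 0.14 and 0.18 in sham joints at 6 weeks and 0.30, 0.21, -0.08 and 0.07 in DMM joints at 6 weeks. The value of -0.66 is that of sham_6wk replicate 2, and the other 15 arrays lay between -0.23 and 0.30. Of the 80 subunit genes, 60 had their lowest value of all arrays on it, where 26.8% of all genes did. The highest value fell on DMM_6wk replicate 1 for 37 subunit genes and on DMM_6wk replicate 2 for 27, where 8.06% and 8.52% of all genes peaked; both arrays are on slide 1.

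Against the mean of the other sham joints at 6 weeks, sham_6wk replicate 2 was lower in 68 of 80 subunit genes, with a median difference of -0.90 on the log2 scale, and in 44.5% of all genes. Complex V gave a median of -1.12, with -2.02 for Atp5j (a stalk subunit) and -1.86 for Atp5c1 (the rotating gamma subunit). Complex III gave -0.84, with -1.85 for Uqcrfs1, and complex I gave -0.80, with -1.89 for Ndufa10. Some subunit genes went the other way on the same array: Ndufa3 by 0.76, Ndufb7 by 0.59, Atp5k by 0.51 and Sdhc by 0.47, and among the restricted forms Cox7b2 by 2.18 and Cox4i2 by 1.33.

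Other mitochondrial genes encoded in the nucleus were low on this array as well, as were genes of other kinds. Mean centred values there were -0.93 for 18 citrate cycle genes, -0.90 for 20 electron carriers and related genes, -0.79 for 35 mitochondrial ribosomal proteins, -0.69 for 48 assembly factors, -0.71 for 32 cytosolic ribosomal proteins, -0.99 for 15 cell cycle genes and -0.46 for 18 glycolysis genes. Markers of chondrocytes were at 2.32 on it, with -1.69 to 1.26 on the other arrays. The part of cartilage cells, of the dim signal or of RNA quality in the low subunit values was not tested.

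The subunits encoded in the mitochondrial genome went the opposite way on that array. Of 13 such genes 11 were measured (ND1 to ND6 with ND4L, CYTB, COX1, COX2 and ATP8), and their mean centred value was 1.10 on sham_6wk replicate 2 and between -0.25 and 0.12 on the other 15 arrays. All 11 were higher on it than the mean of the other sham joints at 6 weeks, by 1.09 to 1.47. COX1, the catalytic subunit of complex IV, read 7.40, 8.65, 7.48 and 7.63 in the sham joints at 6 weeks and 7.71, 7.62, 7.62 and 7.97 in the DMM joints. CYTB, the core of complex III, read 6.87, 8.03, 6.75 and 6.91 after sham and 7.10, 7.10, 7.04 and 7.31 after DMM surgery. For both genes the DMM joints lay between the 3 similar sham joints and the high one, except that COX1 in DMM_6wk replicates 2 and 3 and the highest of these 3 sham joints overlapped.

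Over the groups, the mitochondrially encoded genes differed little between DMM and sham joints. The median was -0.01 at 1 week, with 5 of 11 higher, and -0.06 at 6 weeks, with 1 of 11 higher; none was called, and none had an unadjusted p under 0.05. Without sham_6wk replicate 2 all 11 were higher in DMM joints at 6 weeks, by a median of 0.24, so the direction of this list turned with 1 array. Within slides the median at 6 weeks was -0.37 on slide 1 and 0.30 on slide 2.

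**Figure D2:**
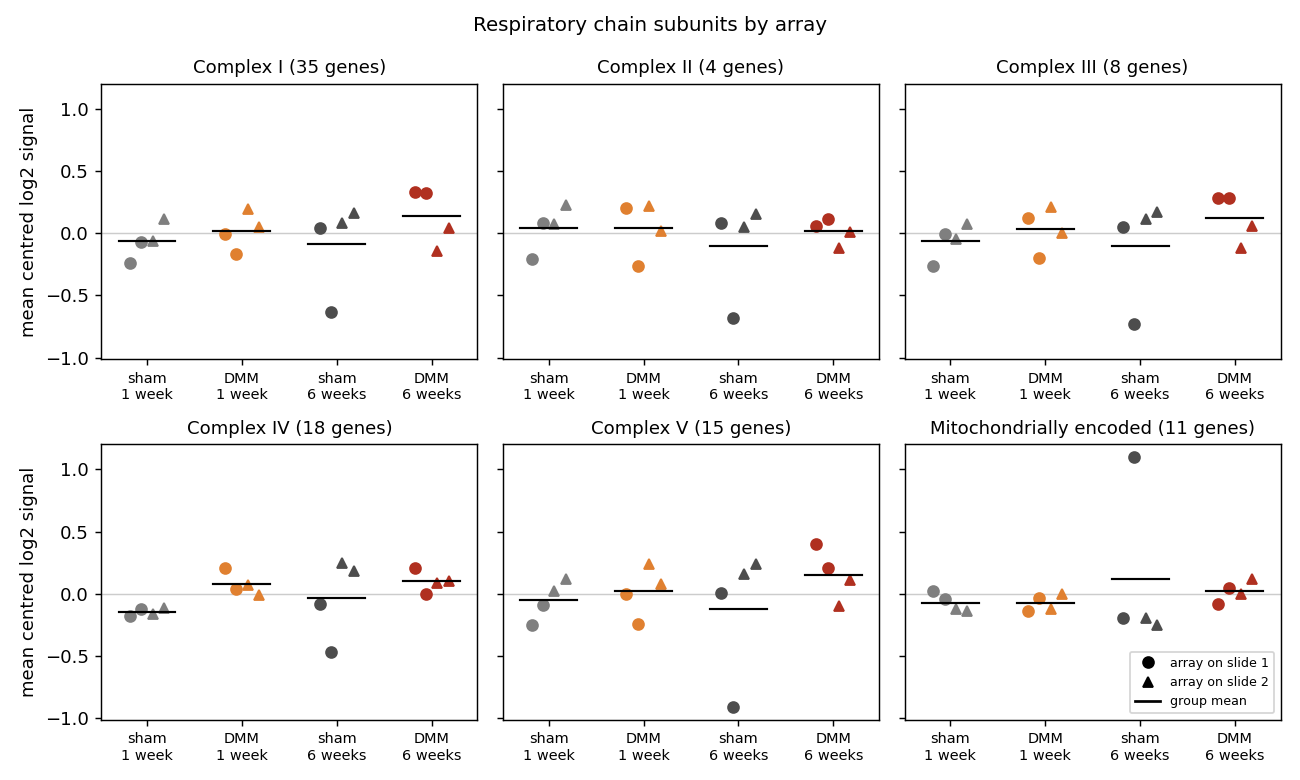
Mean centred log2 signal of the subunit genes of each complex and of the mitochondrially encoded subunits (y axis) in each array, by group (x axis); circles are arrays of slide 1, triangles arrays of slide 2, lines group means. Sham_6wk replicate 2 lies at -0.47 to -0.91 for complexes I to V and at 1.10 for the mitochondrially encoded genes.

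Named subunits at 6 weeks followed the array values given above. In complex I the largest difference was that of Ndufa11, 0.49 ± 0.38: it read 1.41, -0.10, 1.65 and 1.90 in the sham joints and 2.13, 1.82, 1.13 and 1.75 in the DMM joints, and the groups overlapped. Ndufb2 gave 0.43 ± 0.35, while Ndufa3 and Ndufb7 gave -0.03 ± 0.19 and -0.06 ± 0.18. In complex III, Uqcrfs1 gave 0.46 ± 0.39 from 3.47, 1.53, 3.24 and 3.44 after sham and 3.47, 3.94, 2.86 and 3.26 after DMM surgery. The core proteins Uqcrc2 and Uqcrc1 gave 0.33 ± 0.29 and 0.04 ± 0.15, and Uqcrh gave 0.09 ± 0.15. In complex V, Atp5j gave 0.50 ± 0.40 and Atp5c1 0.47 ± 0.36, and Atp5g2 and Atp5k gave 0.10 ± 0.16 and -0.07 ± 0.16. The catalytic beta subunit Atp5b read 6.28, 4.93, 6.54 and 6.59 after sham and 6.78, 6.51, 6.24 and 6.45 after DMM surgery, a difference of 0.41 ± 0.30. The groups of Atp5b overlapped with and without the low array. The adjusted p of each of these genes was 0.999 in limma's test. With that low array left out the higher values were near 0: Ndufa11 was 0.05, Ndufb2 -0.02, Uqcrfs1 0.00, Uqcrc2 0.01, Atp5j -0.01, Atp5c1 0.00 and Atp5b 0.02. Ndufa3 and Ndufb7 were then 0.16 and 0.09, Uqcrc1 and Uqcrh -0.05 and 0.06, and Atp5g2 and Atp5k 0.01 and 0.06.

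The 3 members that are no subunits were not called either. The pseudogene Atp5c1-ps gave 0.16 ± 0.40 at 1 week and 0.50 ± 0.40 at 6 weeks, Dmac2 gave 0.06 ± 0.19 and 0.07 ± 0.19, and Dmac2l gave -0.27 ± 0.45 and 0.63 ± 0.45. The values at 6 weeks without sham_6wk replicate 2 were 0.02, -0.10 and 0.14 in this order. Over all members of a complex the differences ran from -0.02 to 0.20 at 1 week and from -0.06 to 0.49 at 6 weeks in complex I, and from -0.02 to 0.20 and -0.07 to 0.50 in complex V. In complex IV, which holds the restricted forms, they ran from -0.35 to 1.78 and from -1.39 to 0.70.

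Probes of a gene did not always go the same way. Of 32 members with several probes that passed the filter, 7 had probes of opposite sign at 1 week and 14 at 6 weeks. For Uqcrfs1 the probes gave -0.67 and 0.46 at 6 weeks, for Atp5j -0.28 and 0.50, and for Atp5j2 -0.38 and 0.43. For Ndufa3 the probe used gave -0.03 and its other probes 0.27 and 0.39, so its direction depended on the probe. The probes with the lower value of Uqcrfs1 and Atp5j were dim: their mean levels were -5.64 and -5.12, and they were well above background on 6 and 8 arrays. The brightest probes, which stand for these genes here, were well above background on all 16. The lower probe of Atp5j2, at a mean level of -2.32, and all probes of Ndufa3 were also well above background on all 16. Probes thus also differed in sign where each was well above background on every array. Many of these genes also have processed pseudogenes, and whether a probe reads such a copy was not tested.

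Complex II was the smallest complex and the one in which a subunit was separated downward. Sdhc, a membrane anchor of succinate dehydrogenase, read 2.53, 2.81, 2.73 and 2.70 in sham joints at 1 week, 2.79, 2.74, 2.56 and 2.50 in DMM joints at 1 week, 2.43, 2.86, 2.40 and 2.34 in sham joints at 6 weeks and 2.31, 2.08, 2.33 and 2.31 in DMM joints at 6 weeks. All DMM joints at 6 weeks lay below all sham joints at 6 weeks and below all DMM joints at 1 week. The difference between DMM and sham at 6 weeks was -0.25 ± 0.15 (SE; adjusted p = 0.999 with limma), and 0.365% of all genes were separated downward in this comparison. From 1 to 6 weeks Sdhc changed by -0.39 ± 0.15 after DMM (adjusted p = 0.398) and by -0.19 ± 0.15 after sham surgery (adjusted p = 0.884). Sdhb, Sdhd and Sdha gave 0.38 ± 0.30, 0.17 ± 0.23 and 0.15 ± 0.26 between DMM and sham at 6 weeks, all overlapping. When sham_6wk replicate 2 was left out Sdhc was -0.13, Sdhb 0.03, Sdhd -0.09 and Sdha -0.14.

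Cox6a2, the heart and skeletal muscle form of subunit VIa, was the member separated upward at 6 weeks, where 0.135% of all genes were. Its probe lies at chr7:135349160-135349219 on mm9, minus strand. It read 1.34, 1.22, 1.38 and 1.28 in sham joints at 1 week and 0.41, 0.74, 1.33 and 1.34 in DMM joints at 1 week. At 6 weeks it read 1.27, 0.20, 1.34 and 1.40 after sham and 1.78, 1.82, 1.66 and 1.73 after DMM surgery. The DMM joints at 6 weeks were thus above each of the other 12 arrays and close together, while single arrays of the other groups were low.

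The difference in Cox6a2 at 6 weeks was 0.70 ± 0.26 (SE; adjusted p = 0.999 with limma), with 1.07 on slide 1 and 0.33 on slide 2, and 0.41 without sham_6wk replicate 2. At 1 week it was -0.35 ± 0.26, and the difference between these 2 effects was 1.05 ± 0.37 (adjusted p = 1.00), or 0.77 without that array. The common form Cox6a1 read 7.59, 7.01, 7.77 and 7.77 after sham and 7.87, 7.66, 7.56 and 7.80 after DMM surgery at 6 weeks, a difference of 0.19 ± 0.19, or 0.01 without that array. The signals of the 18 measured skeletal muscle markers were summed per array. At 6 weeks the log2 of this sum was 3.48 to 4.56 in sham and 3.70 to 4.24 in DMM joints. The median difference of these markers was -0.02, with 8 of 18 higher. That median was 0.08 without sham_6wk replicate 2, with 15 of 18 higher, the direction of Cox6a2; the part of muscle RNA in the Cox6a2 values was not tested. The levels of these markers differed widely: over all arrays creatine kinase (Ckm) lay between -6.96 and -1.80 and the troponin Tnnt1 between 1.38 and 2.65.

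Cox8b, the heart, muscle and brown fat form of subunit VIII, was dim and varied widely within and between groups. Its probe lies at chr7:148084852-148084911 on mm9, minus strand. It read -4.73, -4.94, -5.13 and -5.70 in sham joints and -1.13, -3.92, -4.49 and -3.83 in DMM joints at 1 week. At 6 weeks it read -3.63, -4.32, -1.21 and -2.04 after sham and -4.12, -4.58, -1.74 and -2.85 after DMM surgery, with the values -4.32 and -4.58 not well above background. At 1 week the DMM joints were all above the sham joints, with DMM_1wk replicate 1 far above the others; at 6 weeks the arrays of slide 2 were high in both groups.

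The difference in Cox8b at 1 week was 1.78 ± 0.79 (SE; adjusted p = 1.00 with limma) and ranged from 0.81 to 2.16 over the alternative settings and single arrays left out. At 6 weeks it was -0.52 ± 0.79, or -1.03 without sham_6wk replicate 2. From 1 to 6 weeks after sham surgery it was 2.32 ± 0.79 (adjusted p = 0.612 with limma), with 0.86 on slide 1 and 3.79 on slide 2. This change was 2.83 without sham_6wk replicate 2. The common form Cox8a gave 0.11 ± 0.18 at 1 week and 0.28 ± 0.18 at 6 weeks, or 0.11 at 6 weeks without that array.

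The 11 measured adipocyte markers moved with Cox8b from array to array. Their mean centred values were 1.16 on DMM_1wk replicate 1, 1.37 and 0.76 on sham_6wk replicates 3 and 4 and 0.74 and 0.25 on DMM_6wk replicates 3 and 4, the 5 arrays with the highest Cox8b, and between -1.24 and 0.19 on the other 11. The log2 of their summed signals was 4.36 to 5.12 in sham and 4.49 to 6.74 in DMM joints at 1 week. At 6 weeks it was 4.68 to 7.24 in sham and 5.25 to 6.29 in DMM joints. The levels of these markers differed as well: over all arrays adiponectin (Adipoq) lay between 1.13 and 4.03 and Cidea between -7.52 and -4.09. Ucp1, also on the list, was not measured. The list was higher in DMM joints at 1 week for 9 of 11 genes, by a median of 0.72, and lower at 6 weeks for all but 2, by a median of -0.31, or -0.50 without sham_6wk replicate 2. Skeletal muscle markers were at 1.30 and 1.06 on sham_6wk and DMM_6wk replicate 3, and at -0.34 on DMM_1wk replicate 1. The part of fat or muscle RNA in the Cox8b values was not tested.

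**Figure D3:**
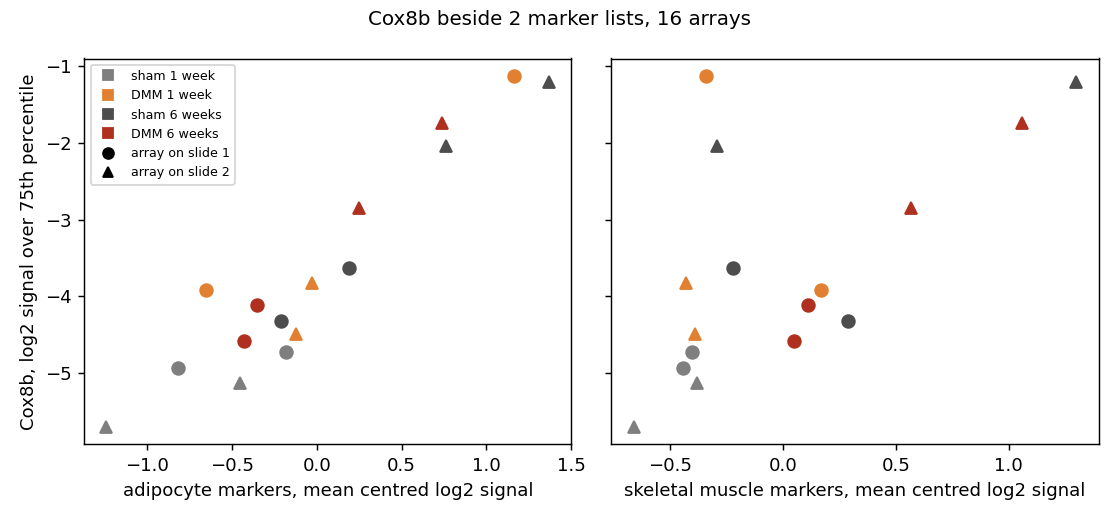
Cox8b log2 signal over the 75th percentile of the array (y axis) against the mean centred log2 signal of 11 adipocyte markers (left) and 18 skeletal muscle markers (right) in the 16 arrays; colours are groups, circles slide 1, triangles slide 2. DMM_1wk replicate 1 lies at 1.16 for adipocyte and -0.34 for muscle markers, with Cox8b at -1.13.

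Ndufa4l2, a low-oxygen counterpart of the complex IV subunit Ndufa4, was high in some of the DMM joints at 1 week. It read -1.74, -1.42, -2.06 and -1.09 in sham and 0.73, -0.25, -1.95 and -0.84 in DMM joints at 1 week, and -2.41, -1.66, -2.25 and -1.89 in sham and -2.21, -2.27, -0.96 and -1.62 in DMM joints at 6 weeks. The groups overlapped at both times. The difference was 1.00 ± 0.45 (SE; adjusted p = 1.00 with limma) at 1 week, with 1.82 on slide 1 and 0.18 on slide 2, and 0.29 ± 0.45 at 6 weeks. The difference at 6 weeks was 0.42 without sham_6wk replicate 2. After DMM surgery Ndufa4l2 changed by -1.19 ± 0.45 from 1 to 6 weeks (adjusted p = 0.379 with limma), with -2.48 on slide 1 and 0.10 on slide 2. Ndufa4 itself gave 0.07 ± 0.21 at 1 week and 0.22 ± 0.21 at 6 weeks, or 0.02 at 6 weeks without sham_6wk replicate 2. The 14 markers of osteoblasts and osteocytes were higher in DMM joints at 1 week for 11 of them, by a median of 0.33. They were at 0.82 on DMM_1wk replicate 1, where Ndufa4l2 was highest, and at -0.26 on DMM_1wk replicate 2, where it was next highest. Adipocyte markers were high on DMM_1wk replicate 1 as well, at 1.16. The part of neither list in the Ndufa4l2 values was tested.

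Of the other restricted forms, Cox7b2, known from testis, gave a large but uncertain difference at 6 weeks. It read -4.16, -1.51, -2.62 and -4.28 in sham and -4.38, -5.25, -3.97 and -4.54 in DMM joints, 1 of the latter not well above background, and the difference was -1.39 ± 0.81 (adjusted p = 0.999 with limma), or -0.85 without sham_6wk replicate 2. At 1 week it read -3.0, -2.82, -3.68 and -4.13 after sham and -4.42, -0.27, -3.67 and -4.60 after DMM surgery, so that 1 array was far above the rest. Cox7a1 gave 0.28 ± 0.25 and 0.20 ± 0.25 at 1 and 6 weeks, and Cox4i2 gave 0.20 ± 0.31 and -0.03 ± 0.31. The common Cox4i1, Cox7a2 and Cox7b gave 0.08 ± 0.24, 0.13 ± 0.27 and 0.10 ± 0.30 at 1 week and 0.23 ± 0.24, 0.36 ± 0.27 and 0.40 ± 0.30 at 6 weeks. With the same array left out the values at 6 weeks were 0.00, 0.04 and 0.04 for these 3, 0.05 for Cox7a1 and 0.31 for Cox4i2.

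Cox6b2 was the member that passed the test in any comparison: it was higher at 6 weeks than at 1 week, over both surgeries. It is the testis form of subunit VIb, which binds the face of complex IV that meets cytochrome c. Cox6b2 read 1.26, 0.84, 1.45 and 1.13 in sham joints and 1.12, 1.21, 1.69 and 1.16 in DMM joints at 1 week. At 6 weeks it read 1.79, 1.67, 1.99 and 1.84 after sham and 2.01, 2.11, 1.64 and 1.83 after DMM surgery. After sham surgery the 2 times did not overlap. After DMM surgery they overlapped through DMM_1wk replicate 3 at 1.69 and DMM_6wk replicate 3 at 1.64. Mice were also older at 6 weeks than at 1 week after surgery, and there was no unoperated group. Age and time after surgery therefore cannot be told apart in any comparison of the 2 times.

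The difference in Cox6b2 between 6 and 1 week, averaged over sham and DMM, was 0.63 ± 0.13 (SE, 8 against 8 arrays; adjusted p = 0.0403 with limma), where 0.871% of all genes (246 of 28250) were called. It was 0.65 ± 0.18 after sham (adjusted p = 0.589) and 0.60 ± 0.18 after DMM surgery (adjusted p = 0.289), with 0.68 and 0.63 on slides 1 and 2 after sham and 0.89 and 0.31 after DMM surgery. Between DMM and sham joints it was 0.13 ± 0.18 at 1 week and 0.08 ± 0.18 at 6 weeks. Leaving out sham_6wk replicate 2 gave 0.03 for DMM against sham at 6 weeks and 0.70 for the change after sham surgery. The call was lost with no filter on dim probes (adjusted p = 0.0698) and when most single arrays were left out, with adjusted p between 0.0669 and 0.112. It was kept, with adjusted p between 0.0165 and 0.0371, without sham_6wk replicate 2, sham_1wk replicate 3, DMM_1wk replicate 3 or DMM_6wk replicate 3. Over all these fits the difference was between 0.57 and 0.69.

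The probes of Cox6b2 and its common form Cox6b1 read different stretches of sequence, shown because the array tells the 2 forms apart by them. The longest run of bases that both 60-base probes share is 6. The Cox6b2 probe lies at chr7:4703488-4703547 on mm9, minus strand, and its leading 24 bases, read in the first frame, end in a stop codon (capitals). The Cox6b1 probe, within chr7:31409575-31411071 on mm9, minus strand, holds a start codon (capitals), printed here with the 27 bases after it as a stretch of 30.
Cox6b2: ggaactttcccgggcaaaataTGA
Cox6b1: ATGgctgaagacatcaagactaaaatcaag

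Cox6b1 itself read 1.62, 1.70, 2.03 and 2.17 in sham and 1.94, 1.57, 2.33 and 2.26 in DMM joints at 1 week, and 2.06, 0.77, 2.26 and 2.44 in sham and 2.69, 2.27, 1.90 and 2.30 in DMM joints at 6 weeks. All groups overlapped, and the difference between 6 and 1 week was 0.13 ± 0.22, or 0.32 without sham_6wk replicate 2.

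**Figure D4:**
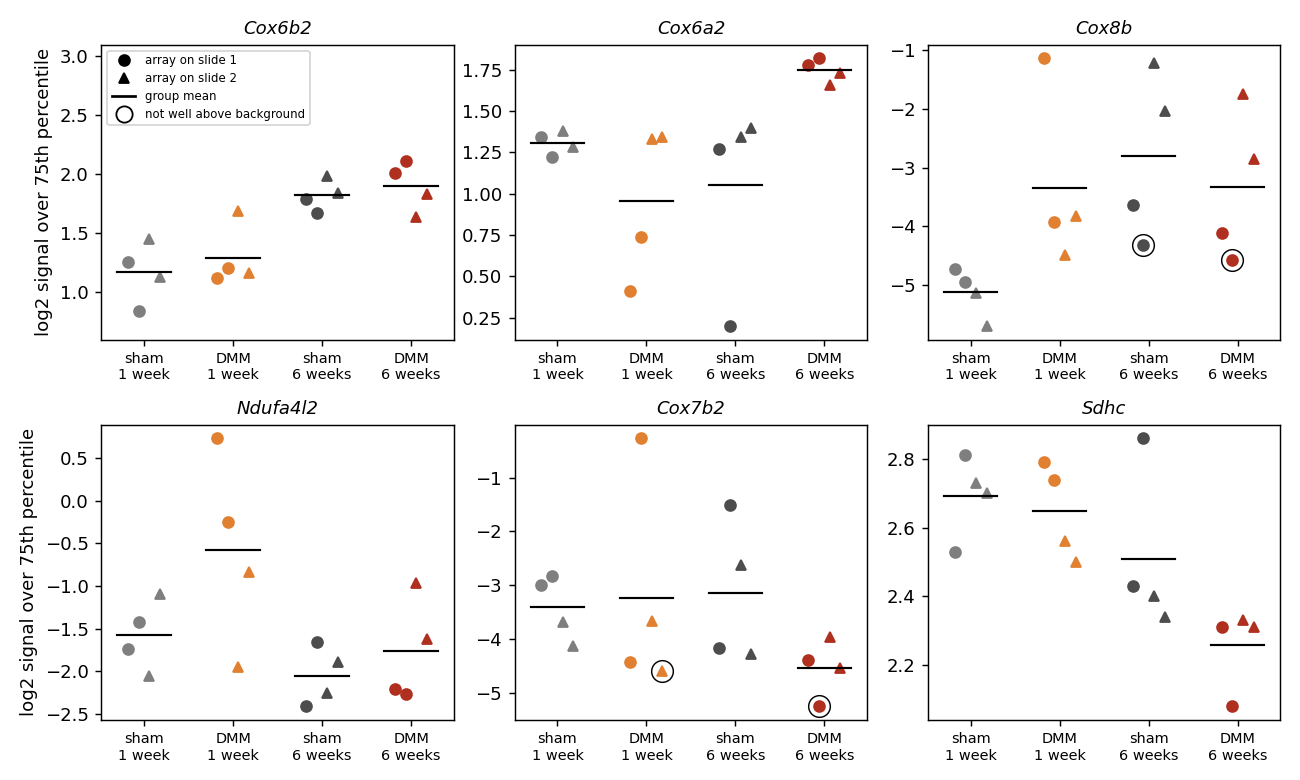
Log2 signal over the 75th percentile of the array (y axis, own scale per gene) for 6 members in each array, by group (x axis); circles are slide 1, triangles slide 2, lines group means and rings values not well above background. Cox6b2 lies between 0.84 and 1.69 at 1 week and between 1.64 and 2.11 at 6 weeks, and Cox6a2 in DMM joints at 6 weeks lies above the other 12 arrays.

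Apart from Cox6b2, no subunit gene was called between the times with all arrays. Between 6 and 1 week averaged over both surgeries the median over the subunit genes was 0.05, with 55 of 80 higher, and that over all genes was 0.04. It ran from 0.00 without DMM_1wk replicate 2 to 0.15, with 69 of 80 higher, without sham_6wk replicate 2, and was -0.06 with quantile normalization and -0.03 in the authors' value table. After sham surgery the median was -0.05 with 31 of 80 higher, and after DMM surgery 0.13 with 67 of 80 higher; no member and 0% of all genes were called in either. The median after sham surgery was 0.17 without sham_6wk replicate 2, with 68 of 80 higher, so its direction turned with 1 array; without sham_1wk replicate 4 it was 0.02. After DMM surgery the median was 0.04 without DMM_1wk replicate 2, 0.06 without DMM_6wk replicate 1 and 0.08 without DMM_6wk replicate 2. It was 0.22 without DMM_6wk replicate 3, -0.02 with quantile normalization and -0.03 in the authors' value table. At an unadjusted p under 0.05 there were 2 subunit genes after sham and 4 after DMM surgery, against 2032 and 2743 of all genes. After sham surgery 4 subunit genes lay wholly above their values at 1 week (Cox6b2, Cox8b, Cox7a2l and Uqcrh) and 0 wholly below, with 2.16% and 3.18% of all genes so separated. After DMM surgery Cox6a2 lay wholly above and Sdhc wholly below, with 2.79% and 2.46% of all genes. Within slides the median after DMM surgery was 0.39 on slide 1 and -0.16 on slide 2.

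Uqcrh, the hinge protein of complex III, read 6.32, 6.29, 6.34 and 6.15 in sham joints at 1 week and 6.37, 6.43, 6.54 and 6.66 at 6 weeks, a difference of 0.22 ± 0.15. Cox7a2l, counted here with complex IV, read 5.50, 5.51, 5.47 and 5.50 at 1 week and 5.61, 5.67, 5.60 and 5.72 at 6 weeks, a difference of 0.15 ± 0.15. In both genes the groups were close but separate. Their differences were 0.24 and 0.15 without sham_6wk replicate 2. Sdhc gave -0.29 ± 0.11 over both surgeries (adjusted p = 0.198 with limma), and this became -0.35 with an adjusted p of 0.0378 without sham_6wk replicate 2. In that fit 1505 of all 28250 genes and 2 of the 83 members were called.

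Of the other lists, some held genes called between the times, where 0.871% of all genes were called. Erythroid markers were higher at 6 weeks in 16 of 16 genes, by a median of 1.08 (2 called), B cell markers in 10 of 10 by 0.83 (1 called), skeletal muscle markers in 17 of 18 by 0.53 (1 called), chondrocyte markers in 13 of 15 by 1.31 (1 called) and cell cycle genes in 15 of 15 by 0.43 (0 called). Megakaryocyte and platelet markers were higher in 10 of 10 by 0.75 and adipocyte markers in 11 of 11 by 0.51, with 0 called. Osteoclast markers were lower in all but 2 of 12, by a median of -0.63 (1 called), and glycolysis genes in all but 3 of 18, by -0.20 (0 called). Without sham_6wk replicate 2, where 1505 of all genes were called, 14 erythroid, 6 B cell, 4 skeletal muscle, 1 chondrocyte, 7 cell cycle, 5 megakaryocyte and platelet, 0 adipocyte, 4 osteoclast and 2 glycolysis genes were called, and the median of each list kept its direction. The part of a changed cell makeup in the Cox6b2 difference was not tested.

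Genes that work with the chain were not called either between DMM and sham joints, at 1 or at 6 weeks. The 48 assembly factors, which build the complexes, had medians of 0.05 at 1 week (34 higher) and 0.14 at 6 weeks (35 higher). The 20 electron carriers and related genes, among them cytochrome c (Cycs, 0.14 and 0.37), had 0.07 (15 higher) and 0.17 (18 higher). The 18 citrate cycle genes had 0.02 (11 higher) and 0.25 (16 higher), the 35 mitochondrial ribosomal proteins 0.09 (31 higher) and 0.19 (30 higher), and the 18 glycolysis genes -0.02 (8 higher) and 0.15 (13 higher). Without sham_6wk replicate 2 the medians at 6 weeks were -0.03, -0.07, -0.04, -0.05 and 0.03 in this order, and 18, 4, 4, 6 and 10 genes were higher.

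The 16 regulators of mitochondrial biogenesis had medians of -0.06 at 1 week (7 higher) and 0.07 at 6 weeks (9 higher). Nrf1, whose core motif was searched above, gave -0.15 and 0.11, the ETS factor subunits Gabpa and Gabpb1 gave 0.01 and -0.09, and -0.09 and 0.20, and the coactivator Ppargc1a gave 0.10 and -0.31. Ppargc1b gave -0.20 and -0.50, and the mitochondrial transcription factor Tfam gave 0.02 and 0.21. The median at 6 weeks was -0.09 without sham_6wk replicate 2, with 3 of 16 higher. Nrf1 was then 0.08, Gabpa -0.07, Gabpb1 0.01, Ppargc1a -0.31, Ppargc1b -0.29 and Tfam -0.12, and Cycs of the electron carriers -0.06. None of the 16 had an unadjusted p under 0.05 in either comparison with all arrays.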

How the data were processed

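RNA of 16 joints was measured on 1-colour Agilent arrays. The members and the gene lists were chosen with earlier results of these data known. Agilent Feature Extraction 10.7.3.1 made the scanner files, per the file headers; they hold the deposited intensity of each spot after background correction, with 14.3% of the spot values replaced by surrogates near background. The authors also deposited a table of 50815 probes, made with limma 3.20.9 per the submitters' processing notes and read here as log2 values from its range of -1.67 to 20.43; array medians are 7.24 to 7.34, and how it was centred and normalized is not stated in the labels or headers.

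Flagged outlier spots were left out, spots of a probe averaged as log2 intensity, and the 75th percentile of each array subtracted. Probes well above background on 4 of 16 arrays (43268) were kept, and the brightest probe stood for a gene. One mean per group was fitted over all 16 arrays with limma 3.58.1 in R 4.3.3, with p adjusted by Benjamini-Hochberg over 28250 genes and a threshold of 0.05; the fit was tested on simulated data. Errors printed with ± are the standard errors of that fit. Mean centred values are means over genes after subtracting each gene's mean over the arrays. Members were named by a rule: per complex the 2 highest and 2 lowest differences at 1 and at 6 weeks, members called in any comparison, core subunits and alternative forms; genes outside it, such as those whose groups do not overlap, were chosen after their values were seen. Levels of different probes were set side by side only as description and were not tested against each other. No genome or annotation of mm9 was used. Alternatives were other backgrounds, scalings, filters, probe rules, the slide as a block, array weights, the authors' table and each array left out. Arrays number 4 per group, which limits the precision.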

Additional observations from a re-analysis of the deposited data

Results flagged for a closer look

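In 7 of 60 groups of 4 arrays examined, 1 array lay apart from the other 3 by a share of the group's range above Dixon's 95% critical value, a gap that chance gives in about 1 of 20 groups. The groups share arrays and genes, and some of the single genes were chosen after their values were seen. The count of 7 can therefore not be set against that rate. In 5 of the 7 the array was sham_6wk replicate 2. For complex I it lay at -0.63 against 0.04 to 0.16 in the other sham joints at 6 weeks (gap over range 0.848). For complex II it lay at -0.68 against 0.05 to 0.15 (0.880), and for complex III at -0.73 against 0.05 to 0.17 (0.867). For the mitochondrially encoded subunits it lay on the other side, at 1.10 against -0.25 to -0.19 (0.956). Cox6a2 read 0.20 on it against 1.27 to 1.40 (0.892).

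The other 2 were single genes. Cox6b2 read 1.69 on DMM_1wk replicate 3 against 1.12 to 1.21 in the other DMM joints at 1 week (0.842). Sdhc read 2.08 on DMM_6wk replicate 2 against 2.31 to 2.33 (0.920). No member was called for a difference between the DMM effects at 6 weeks and at 1 week.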

How the results depend on the processing

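Outside the runs with an array left out, 189 counts and medians were compared with the values given above. Of these, 175 stayed within 1.5 times (counts) or 1 SD between arrays (medians). Of 456 values for complexes and named members, 421 did so or kept their sign and side of the test, while 31 changed sign. These limits were loose: the SD over all subunits was 0.231, above most of the medians, and most counts were 0. With single arrays left out, 304 counts and medians stayed and 32 moved. Of the other values in those runs, 766 stayed and 36 changed sign. The cause of the changes was not tested.

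With array weights (0.0758 for sham_6wk replicate 2) the median of the subunit genes at 6 weeks was 0.00 and that of the difference of the effects -0.14. Weights gave 1 gene called at 6 weeks, 2 for the difference of the effects, 3260 (3 members) from 1 to 6 weeks after sham, 966 after DMM and 5863 (3 members) over both surgeries. The last count was 424 with normexp background, 464 with probes well above background on all arrays, 644 with the slide as a block and 0 (0 members) with no filter.

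Values near 0 changed sign. At 1 week Ndufa3 was 0.01 with normexp, 0.02 with the median of probes and 0.01 with weights, and Atp5e was 0.01 with normexp, 0.01 with the percentile over probes seen on all arrays and 0.03 with weights. Ndufa8 was 0.00 with that percentile and Uqcrb -0.01 in the authors' table. Sdha was 0.04 and Atp5pb 0.03 with the median of probes, and weights gave 0.04 for Sdha, 0.12 for Atp5pb, 0.01 for Sdhd, and 0.07 for Uqcrfs1 and Cox7a2l. At 6 weeks quantile normalization gave -0.01 for Uqcrc1 and Atp5g2. The authors' table gave -0.12 for Uqcrc1, -0.08 for Atp5g2 and -0.10 for Uqcrh, and the median of probes 0.39 for Ndufa3 and -0.10 for Uqcrfs1. Weights gave -0.16 for Uqcrc1, -0.10 for Atp5g2, 0.18 for Ndufa3, -0.01 for Ndufb2 and Atp5c1, 0.00 for Ndufb7, -0.02 for Sdhd, -0.12 for Sdha and 0.03 for Atp5k.

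With each array left out, ranges at 1 week were -0.06 to 0.05 for Ndufa8, -0.08 to 0.08 for Ndufa3, -0.14 to 0.14 for Sdha, -0.10 to 0.01 for Sdhc, -0.15 to 0.09 for Sdhd, -0.09 to 0.15 for Uqcrb, -0.21 to 0.17 for Uqcrfs1, -0.09 to 0.11 for Cox7a2l, -0.04 to 0.06 for Atp5e and -0.13 to 0.11 for Atp5pb. At 6 weeks they were -0.02 to 0.62 for Ndufb2, -0.14 to 0.16 for Ndufa3, -0.17 to 0.09 for Ndufb7, -0.09 to 0.31 for Sdhd, -0.14 to 0.28 for Sdha, -0.05 to 0.09 for Uqcrc1, -1.05 to 0.01 for Cox8b, -0.01 to 0.74 for Atp5j and -0.13 to 0.06 for Atp5k. Genes called ranged over 0 to 1 at 6 weeks, 0 to 1 from 1 to 6 weeks after sham, 0 to 27 after DMM and 0 to 1505 over both surgeries (0 to 2 members). The runs of Cox6b2 through every setting and of the gene lists and single members without sham_6wk replicate 2 were chosen after seeing the data. No paired analysis was possible because replicate numbers only name the arrays of a group.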
